A study of Mus musculus with 4 samples.

Results

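The Hedgehog pathway genes were followed in chromatin accessibility maps of bone mesenchymal stem cells (MSCs) of old and young mice. The 9 genes were the ligands Shh, Ihh and Dhh, the receptor Ptch1, the signal transducer Smo, the inhibitor Sufu and the transcription factors Gli1, Gli2 and Gli3. Their members were the ATAC-seq peaks that overlapped a gene of the list or the 5 kb upstream of its start, in the GENCODE vM21 annotation of the mouse build mm10 (GRCm38). This gave 83 of the 117282 peaks of the table, and each of the 9 genes had at least 1 peak. Gli2 held 30 peaks, Gli3 26, Sufu 9, Smo 6, Shh 4, Ptch1 4, Dhh 2, Ihh 1 and Gli1 1. Of the 83 peaks, 61 lay in introns, 10 within 1 kb of a start site, 10 over other exons and 2 upstream. Some peaks also overlapped other annotated genes. They included all 4 Shh peaks (9530036O11Rik), the strongest Ptch1 peak (A930032L01Rik) and the upstream Dhh peak (Lmbr1l). The start peaks of Gli1 (Gm47200) and Gli3 (Gm26645 and Gm6556) did too.

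The old group held 2 samples from mice aged 18 to 22 months and the young group 2 samples from mice aged 3 to 5 months. The study's methods name wild-type male C57BL/6N mice of the younger age, the labels give neither strain nor sex, and the methods do not describe the old mice. No treatment apart from culture was named, and all 4 samples were grown only at 2% O2, so no freshly isolated cells and no other oxygen level entered the comparison. Whether a sample held the cells of 1 animal or of several was not stated. The labels did not say that the 2 samples of a group came from separate cultures, so the p-values below measure only the spread between these samples. ATAC-seq uses a transposase that inserts adapters into open DNA, so that the number of fragments at a site reports how accessible it is.

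Hedgehog ligands are secreted proteins that bind Ptch1, which in their absence holds Smo inactive. Active Smo at the primary cilium frees the Gli factors from Sufu; Gli2 acts mainly as an activator, Gli3 is otherwise cut to a repressor, and Gli1 and Ptch1 are themselves targets of the pathway. In bone, Ihh from growth plate chondrocytes is needed for osteoblast formation, while Shh patterns the limb and Dhh acts in testis and peripheral nerve.

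The Ptch1 peaks carried the letters that Gli factors are known to bind. GACCACCCA, searched on both strands, occurred 3 times in 3 of the 83 peaks, at 17.2 matches per megabase of peak against 8.98 over all peaks. With the fifth letter free (GACCNCCCA, which includes the first motif) there were 10 matches in 8 peaks, or 57.2 per megabase against 28.3. In windows of equal length, the central 300 bases, 1.20% of the Hedgehog peaks and 0.216% of all peaks held GACCACCCA, which is 1 peak of the 83. Of the RefSeq promoters, also 300 bases long, 0.253% held it. With the free letter, 1.20% of the Hedgehog windows held a match, against 0.749% of all windows and 0.977% of the RefSeq promoters. A match is only a match of letters. The 3 full matches and the further Ptch1 match are shown because they lie at the pathway's own target and at Gli2, each as 29 bases of mm10 on the strand of the motif with the motif in capitals.
Ptch1 chr13:63566425-63566453: aaagtagagaGACCACCCAggtaggcaac
Ptch1 chr13:63566781-63566809: attcaagccgGACCTCCCAgtatttgctg
Ptch1 chr13:63573455-63573483: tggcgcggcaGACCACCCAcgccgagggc
Gli2 chr1:118969533-118969561: ggcctgcccaGACCACCCAgtctccagca
The first lies on the plus strand, 708 bases before the Ptch1 start at 63565735, and the second on the minus strand 1064 bases before it. Both are in an intron and inside the strongest Ptch1 peak. Among the 2451 peaks of like width (80% to 125% of its 7300 bp), 6.73% held GACCACCCA. The third lies on the minus strand in an exon, 125 bases after the upstream Ptch1 start at 63573598, and 2.37% of the 14013 peaks of like width held the motif. The Gli2 match is on the plus strand in an intron, and 2.71% of the 11974 peaks of like width held the motif. The other 6 matches with the free letter read GACCT and lay in peaks of Dhh, Gli1, Gli2 (2 matches) and Sufu (2 matches).

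The letters of 2 other motifs were less frequent in the central windows of the Hedgehog peaks than over all peaks. The AP-1 letters TGANTCA occurred in 11 of the 83 Hedgehog windows (13.3%) and in 21.5% of all windows, both strands included. The RUNX letters TGTGGTT occurred in only 4 Hedgehog windows (4.82%) and in 9.90% of all windows. Of the RefSeq promoters, 7.81% held the AP-1 and 5.27% the RUNX letters. The median GC content of the windows was 50% against 46.7% over all peaks, and the median number of CpG dinucleotides 4 against 3. In the RefSeq promoter table (GRCm38.p6), 7 of the 9 genes were matched, and Gli1 and Shh were not. The 250 bases before the start are printed for Ptch1, the promoter with the most CpG of the 7, and for Sufu, the promoter with the fewest, with each CpG in capitals.
Ptch1 chr13:63565736-63565985, minus strand: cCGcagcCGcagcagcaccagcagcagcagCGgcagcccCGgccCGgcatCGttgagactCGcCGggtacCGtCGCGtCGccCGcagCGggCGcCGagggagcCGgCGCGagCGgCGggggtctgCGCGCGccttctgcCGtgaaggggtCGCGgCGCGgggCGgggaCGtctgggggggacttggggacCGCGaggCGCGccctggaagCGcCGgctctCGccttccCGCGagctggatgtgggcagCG
Sufu chr19:46396646-46396895, plus strand: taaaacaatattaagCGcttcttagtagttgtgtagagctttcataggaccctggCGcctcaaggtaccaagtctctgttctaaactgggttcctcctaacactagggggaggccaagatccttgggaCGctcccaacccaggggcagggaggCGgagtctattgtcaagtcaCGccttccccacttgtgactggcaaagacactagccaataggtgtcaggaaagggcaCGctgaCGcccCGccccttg
The Ptch1 promoter had 41 CpG, more than 98.9% of the 32851 RefSeq promoters, whose median was 6. Gli3 followed with 34, Ihh with 24, Gli2 with 22, Smo with 15, Dhh with 9 and Sufu with 8. The count did not order the accessibility of the start sites, since the Sufu start peak was the densest of the 10 and the Ihh start peak the least dense.

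Values are given RLE-scaled, that is, as the deposited value divided by a factor for its sample, which is the median over peaks of its ratio to the geometric mean of the 4 samples. Old replicate 1 had a factor of 0.817 and old replicate 2 of 1.01, and the young samples had 1.07 and 1.15. A single count was worth between 0.307 and 0.354 of the deposited value. With an assumed scale of 10000000 per library, the library totals would run from 28259470 to 32559794 counts. The median Hedgehog peak held 57.5 counts per sample, against 49.5 over all peaks. Old replicate 1 stood apart in its scale, and leaving it out raised the number of peaks past the threshold over the whole table from 66 to 10354. The counts of members are therefore also given without it. Start sites of all 6 mesenchymal marker genes lay under a peak, and their summed values were 1784 and 2377 in the old and 1830 and 1842 in the young samples, highest in old replicate 2, which was also the highest sample at the start peaks of Dhh, Smo, Sufu and Gli1. Of the blood and macrophage markers 3 of 5 had a start-site peak, with Ptprc and Itgam at none. Their sums were 412 and 603 in the old and 558 and 495 in the young samples, again highest in old replicate 2. Of the endothelial markers 3 of 4 had one, with Cdh5 at none and sums from 76.2 to 87.5, highest in young replicate 1. All 3 cartilage markers had one, with sums from 358 to 416, highest in old replicate 2. The part of these in the results was not tested, and in such bulk samples more cells open at a site and a more open site in each cell cannot be told apart.

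Per kb of peak, the receptor and target gene Ptch1 was the most accessible of the 9 genes, and the 3 ligand genes the least. Summed over its peaks and divided by their width, Ptch1 had 33.4 per kb (range over the 4 samples 32.6 to 34.4), and Gli1, the other target gene, 30.1 (27.8 to 36.0). Smo had 22.5 per kb (19.6 to 27.2), Gli3 18.7 (18.4 to 19.3), Gli2 17.9 (17.3 to 18.8) and Sufu 16.7 (14.4 to 21.9). Shh had 10.9 (9.94 to 12.5), Ihh 9.88 (7.27 to 12.3) and Dhh 9.63 (7.96 to 12.1), and all 3 lay below the median of all peaks, 13.2 per kb. Of neighbours in this order, Ptch1 and Gli1 overlapped in their ranges, as did Gli3 with Gli2, Gli2 with Sufu, Shh with Ihh and Ihh with Dhh. The ranges of Gli1 and Smo, of Smo and Gli3, and of Sufu and Shh did not overlap. Per kb of the gene and its 5 kb upstream, the order differed. Dhh then had means of 8.70 in the old and 7.15 in the young group, Gli1 8.42 and 7.41, and Ptch1 5.35 and 5.20. Shh had 4.73 and 4.42, Ihh 4.27 and 2.87, and Gli3 3.01 and 2.94. Start-site peaks held 100% of the Ihh and Gli1 sums, 97.5% at Ptch1, 77.9% at Dhh and 63.3% at Smo. They held 37.7% at Sufu, 34.3% at Gli3, 10.2% at Gli2 and 7.44% at Shh, so both orders compare unlike sets of peaks. Both are a description and were not tested.

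**Figure D1:**
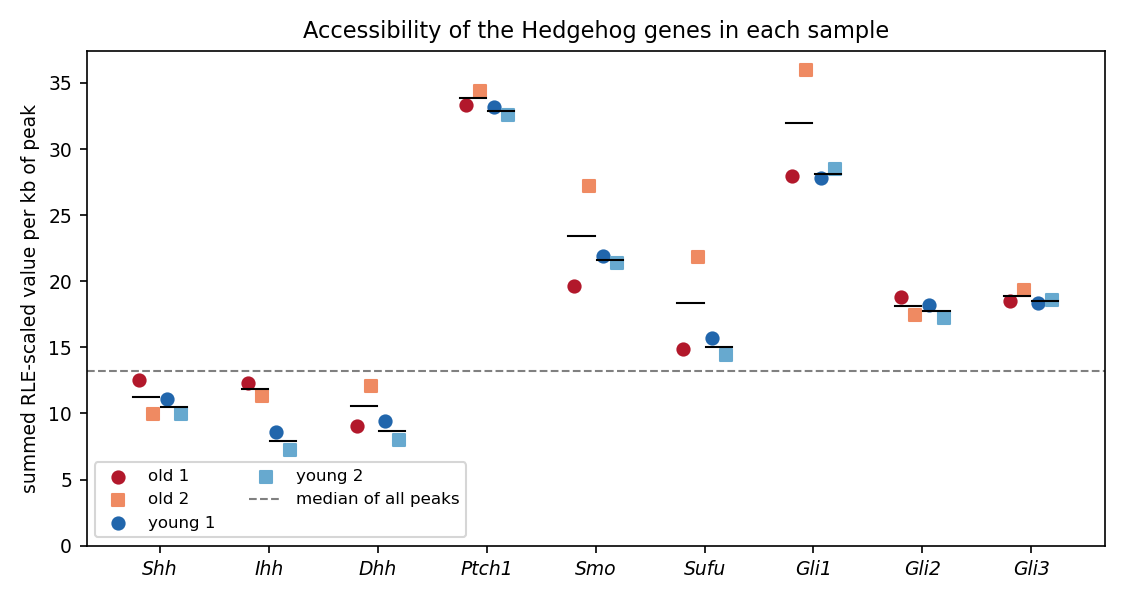
Summed RLE-scaled accessibility per kb of peak for the 9 Hedgehog genes, with 1 point per sample (old in red tones, young in blue tones), a short line at each group's mean (n = 2) and a dashed line at the median of all peaks, 13.2. Ptch1 and Gli1 are highest and Shh, Ihh and Dhh lowest in both age groups, and Ihh is the only ligand with both old samples above both young samples.

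The comparison of the age groups asked whether accessibility at Hedgehog genes differed between old and young MSCs. Of the 83 peaks, 0 passed an adjusted p under 0.01 in limma, and the lowest adjusted p was 0.0850, at a Gli2 intron peak. In limma-voom on recovered counts 0 passed as well. Among all peaks, 66 passed, or 0.0563%. At an adjusted p under 0.05 the members again held 0, with 1.12% over all peaks. At an unadjusted p under 0.05, 2 Hedgehog peaks were lower in old MSCs and 7 higher, or 10.8% together, where the whole table had 8.87% lower and 7.49% higher, 16.4% together. Both old samples lay below both young samples at 11 Hedgehog peaks (13.3%, against 24.2% of all peaks), and above them at 22 (26.5%, against 23.2%).

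The middle of the list stood close to 0. The median log2 fold change (old minus young, on the log2(value + 1) scale) over the 83 peaks was 0.06 after RLE scaling, with 32 peaks below 0 and 51 above, and −0.21 on the values as deposited, where 71.1% of the peaks were below 0. Over all peaks the median was 0.00 after scaling, with 49.9% of peaks below 0, and −0.27 as deposited, with 74.6% below 0. Relative to all peaks, the Hedgehog median stood 0.06 above in either scale. The 4 pairs of 1 old and 1 young sample gave Hedgehog medians of 0.04, 0.05, 0.08 and 0.13. The 10 start-site peaks had a median of 0.05 and all 16213 promoter peaks −0.03. Leaving out 1 sample changed the numbers: the members with an unadjusted p under 0.05 were 20 without old replicate 1 (24.1%, against 29.3% of all peaks) and 12 without old replicate 2 (14.5%, against 17.8%). They were 5 without young replicate 1 (6.02%, against 9.25%) and 3 without young replicate 2 (3.61%, against 6.95%), compared with 9 with all samples. Without old replicate 1, 4 of the 83 passed the adjusted threshold, with 8.83% of all peaks passing. They were Gli2 chr1:119037401-119037900 (log2 fold change −2.36), Dhh chr15:98892001-98899200 (0.65), Sufu chr19:46470201-46472100 (1.11) and Sufu chr19:46476601-46490100 (0.74), and the lone old sample was then assumed to vary as the young ones did.

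**Figure D2:**
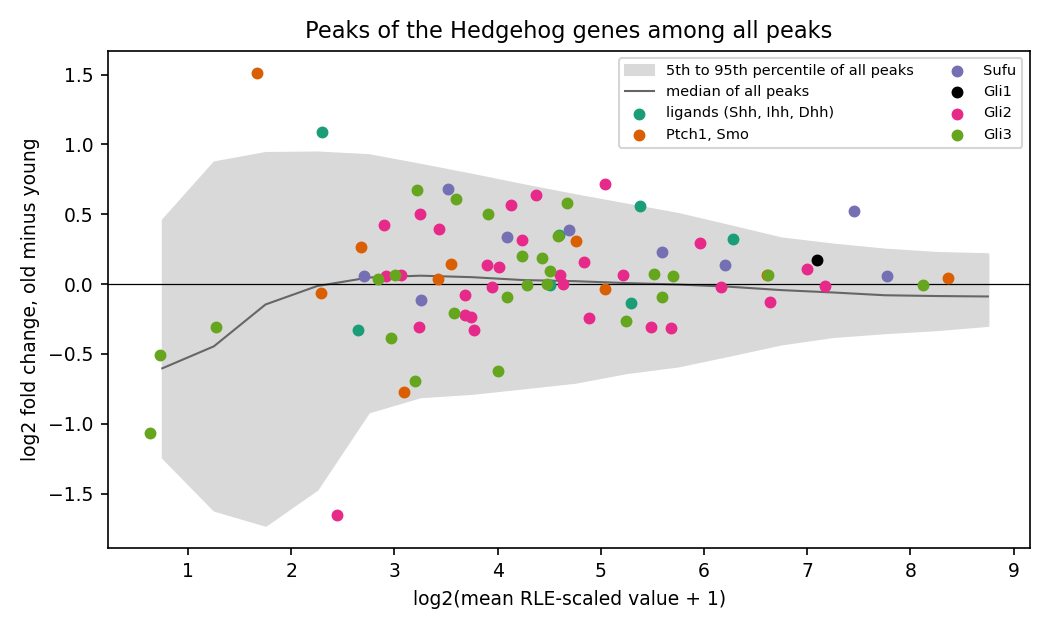
Log2 fold change (old minus young) of each of the 83 Hedgehog peaks against log2 of its mean RLE-scaled value plus 1, coloured by gene; the grey band spans the 5th to 95th percentile of all peaks at that level and the grey line their median. The members lie on both sides of 0, with a weak Smo peak (1.51) and a weak Gli2 peak (−1.65) as the extremes.

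Among the ligands, Ihh was the gene whose old samples were both higher. Its only peak, chr1:74948101-74952200, covered the start of the gene (chr1:74945315-74951672, minus strand) and had values of 50.5 and 46.4 in the old and 35.3 and 29.8 in the young samples. The groups did not overlap, the log2 fold change was 0.56 (SE 0.22), and the adjusted p was 0.199 in limma (unadjusted p = 0.0176). At 9.88 per kb the peak was less dense than most start-site peaks, with 10.6% of all promoter peaks below it. The exact permutation test on the sum gave p = 0.33, the smallest that 2 samples against 2 allow, and on the values as deposited the log2 ratio of the sum was 0.29 in place of 0.58.

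Shh showed weak peaks and no common direction. Its densest peak lay in an intron, chr5:28458701-28461200, with 42.8 and 30.6 in the old and 40.9 and 38.7 in the young samples, and the groups overlapped. The peak at the start, chr5:28466601-28467100, held only 10 and 14 counts in the old and 28 and 11 in the young samples. The other intron peak, chr5:28462301-28465300, outside the rule for named peaks and given for completeness, had 30.4 and 22.1 in the old and 20.5 and 19.8 in the young samples. Upstream of the gene, at chr5:28469601-28470100, the values were 3.85 and 7.58 in the old and 1.32 and 2.95 in the young samples. They did not overlap, which the rule that named this peak requires. That peak rested on 34 counts in the old and 14 in the young group, a ratio of 2.77. The ratio's exact 95% interval, from 1.45 to 5.58, covers counting error at most. The adjusted p of the peak in limma was 0.235. Its log2 fold change of 1.09 was 0.69 without old replicate 2 and 0.70 without young replicate 1. The sums over the 4 peaks were 81.3 and 64.6 against 71.9 and 64.7, a log2 ratio of 0.09 that turned to −0.08 without old replicate 1.

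Dhh was open mainly at a start site that it shared. The peak chr15:98892001-98899200 covered the Dhh start and that of Rhebl1, and the part of each gene in it could not be told apart. Its values were 66.4 and 106 in the old and 73.6 and 60.5 in the young samples, so old replicate 2 alone was high. The log2 fold change was 0.32 (adjusted p = 0.486), and it was 0.65 without old replicate 1, 0.00 without old replicate 2 and 0.18 without young replicate 2. The upstream peak, chr15:98902401-98905400, had 25.7 and 17.9 against 22.4 and 20.7.

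Ptch1 varied little among the 4 samples. Its strong peak, chr13:63561901-63569200, held 333 and 335 in the old and 325 and 324 in the young samples and carried most of the gene's signal, 97.5% together with the second start peak. The log2 fold change was 0.04 (SE 0.12, adjusted p = 0.902), on the values as deposited −0.25. At 45.1 per kb it was denser than 78.5% of promoter peaks. The peak at the upstream start, chr13:63572201-63575000, had 30.0 and 33.1 in the old and 36.3 and 28.6 in the young samples, and the groups overlapped. The other 2 peaks, in introns, reached at most 10.3 in any sample. The sums, 370 and 382 against 368 and 362, did not overlap between the groups but differed by a log2 ratio of only 0.04, or −0.25 as deposited.

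Smo, the membrane protein that Ptch1 restrains, had a start peak without a difference and opposite values at small inner peaks. The start peak, chr6:29734901-29737600, had 80.9 and 119 in the old and 97.4 and 90.6 in the young samples, with the 2 old samples at the ends of the range. Its log2 fold change of 0.06 became −0.20 without old replicate 2 and −0.22 on the values as deposited. A 200 bp intron peak, chr6:29738701-29738900, had 2.57 and 4.85 in the old and 0.99 and 0.30 in the young samples. It rested on 22 counts in the old and 4 in the young group, a ratio of 6.27. The ratio's exact 95% interval, from 2.13 to 25, covers counting error at most. The adjusted p of the peak in limma was 0.127. An exonic peak in the body of the gene, chr6:29756301-29757000, had 3.85 and 6.98 in the old and 9.24 and 10.0 in the young samples, with a log2 fold change of −0.77 (SE 0.36) and an adjusted p of 0.287. It was −0.42 without old replicate 1 and −1.12 without old replicate 2. The groups did not overlap at either of these peaks, which the rule that named them requires. Of the 6 Smo peaks 5 had fold changes above 0 and 1 below, and the sums, 134 and 185 against 149 and 145, overlapped.

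Sufu, which binds Gli proteins in the cytoplasm, had 8 of 9 peaks with fold changes above 0, and old replicate 2 was the highest sample at most of them. The start peak, chr19:46394301-46398200, also covered the start of Actr1a and could not be divided between the genes. It was the densest start peak of the pathway at 55.7 per kb, above 87.8% of promoter peaks. Its values were 177 and 271 in the old and 225 and 196 in the young samples, so that the young samples lay between the old ones, and the log2 fold change of 0.06 was −0.23 without old replicate 2 and −0.23 as deposited. At the 3′ end, chr19:46476601-46490100, a 13500 bp peak had 176 and 236 in the old and 142 and 141 in the young samples. This peak falls outside the rule for named peaks and was chosen after its values were seen. Its groups did not overlap, and its log2 fold change was 0.53 (SE 0.16) with an unadjusted p of 0.00442 and an adjusted p of 0.110. It was 0.32 without old replicate 2 and 0.74 without old replicate 1. Over all Sufu peaks the sums were 512 and 754 against 542 and 496, a log2 ratio of 0.26 that became −0.01 without old replicate 2 and 0.54 without old replicate 1.

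Gli1, the target gene used as a readout of pathway activity, had a single peak over its start, chr10:127338501-127343000. The values were 126 and 162 in the old and 125 and 128 in the young samples, and old replicate 2 stood above the other 3, which lay within 3.07 of each other. The log2 fold change was 0.17 (SE 0.17, adjusted p = 0.652), it was 0.00 without old replicate 2 and 0.35 without old replicate 1, and it was −0.11 on the values as deposited. At 30.1 per kb the peak was near the middle of all promoter peaks, denser than 56.0% of them.

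Gli2 and Gli3, the long genes of the list, carried most of the peaks, of which 26 of 30 and 23 of 26 lay in introns. Gli2 (chr1:118834132-119053619, minus strand) had 13.4 peaks per 100 kb, more than 94.6% of the 2492 protein-coding genes of at least 100 kb, whose median was 6.02. Gli3 (chr13:15463235-15730026, plus strand) had 9.57, more than 76.3% of them. The start peak of Gli2 held 10.2% of the gene's summed value and that of Gli3 34.3%. Summed over all peaks, Gli2 had 1013 and 938 in the old and 979 and 928 in the young samples, a log2 ratio of 0.03 that turned to −0.03 without old replicate 1, to −0.01 without young replicate 2 and to −0.26 as deposited. Gli3 had 799 and 836 against 794 and 802, also a log2 ratio of 0.03 and −0.26 as deposited, and both groups overlapped.

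**Figure D3:**
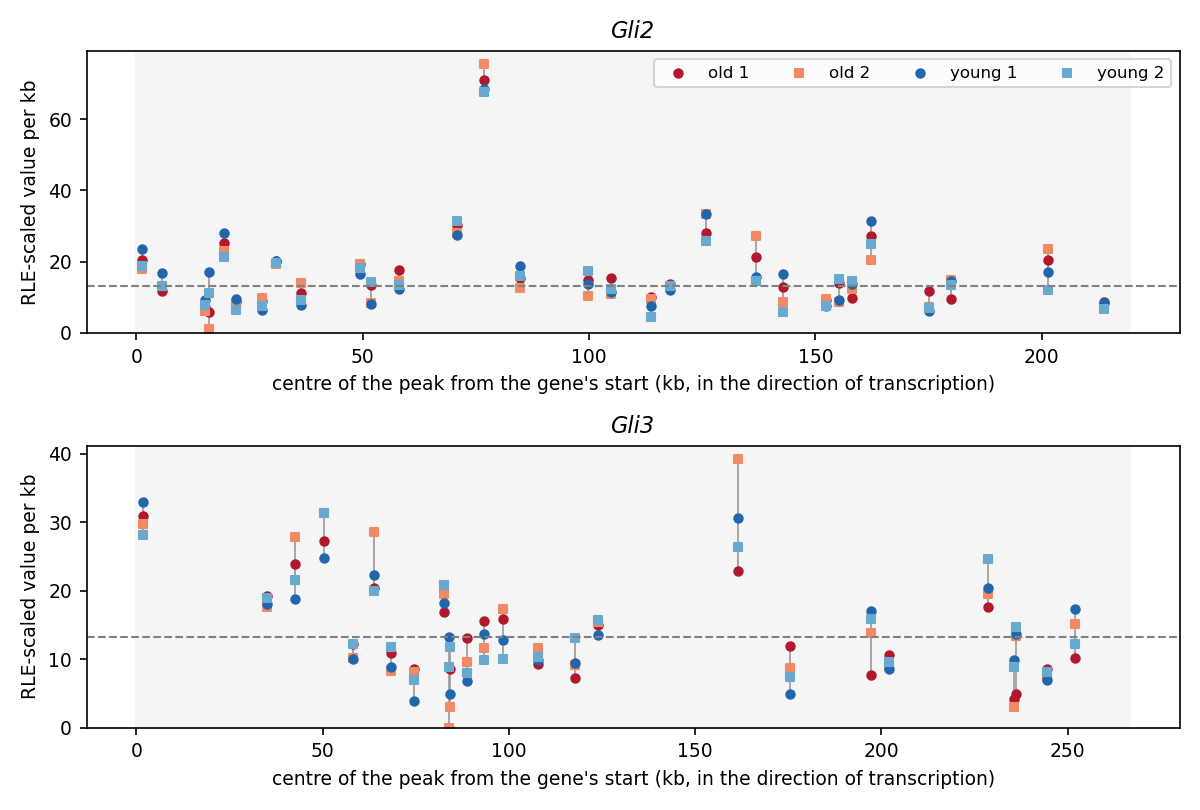
RLE-scaled value per kb of each Gli2 peak (upper panel, 30 peaks) and Gli3 peak (lower panel, 26 peaks) in the 4 samples, against the distance of the peak's centre from the gene's start in kb; grey shading marks the gene, thin lines join the lowest and highest sample, and the dashed line is the median of all peaks. A Gli2 intron peak at 76.8 kb reaches 70.6 per kb on average, far above the start peak at 20.1.

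The densest of the 83 peaks lay deep in Gli2, not at a start site. At chr1:118975901-118977700, in an intron 76.8 kb from the start, the values were 128 and 136 in the old and 123 and 122 in the young samples. This was 70.6 per kb, above 98.9% of all peaks and 94.5% of promoter peaks, and 3.51 times the density of the Gli2 start peak. The log2 fold change was 0.11 (SE 0.16, adjusted p = 0.787), and −0.18 as deposited. The start peak, chr1:119049901-119054800, had 99.7 and 88.0 in the old and 115 and 91.5 in the young samples, with overlapping groups and a log2 fold change of −0.13 that became 0.03 without young replicate 1.

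The Gli2 peaks with the lowest p went in both directions. At chr1:119037401-119037900, an intron peak 16 kb from the start, the values were 3.00 and 0.61 in the old and 8.58 and 5.61 in the young samples. It rested on 9 counts in the old and 45 in the young group, 4.39-fold lower in old MSCs. The ratio was 0.228, with an exact 95% interval of 0.0979 to 0.472 that covers counting error at most. The log2 fold change of the peak was −1.65 (SE 0.47). It was −0.99 (adjusted p = 0.212) without old replicate 2 and −2.36 (adjusted p = 0.000111) without old replicate 1. The peak abutted another Gli2 peak, chr1:119037901-119039000, whose values were 8.13 and 6.67 against 10.2 and 8.56 and which did not pass an unadjusted p of 0.05. In the other direction, chr1:118938001-118942000 had 40.7 and 37.9 in the old and 30.7 and 18.0 in the young samples, a log2 fold change of 0.71 (SE 0.26, unadjusted p = 0.0120, adjusted p = 0.168). That change was 0.34 without young replicate 2 and 1.08 without young replicate 1. A further peak, chr1:118916201-118917200, chosen after its values were seen, had 21.4 and 27.3 against 15.8 and 14.5 (log2 fold change 0.64, unadjusted p = 0.0235). The groups did not overlap at any of these 3 peaks with an unadjusted p under 0.05, and none passed the adjusted threshold. Non-overlap was required by the rule that named chr1:119037401-119037900 and chr1:118938001-118942000.

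At the start of Gli3 the groups overlapped. The peak, chr13:15460501-15469600, had 282 and 271 in the old and 300 and 256 in the young samples, with the young samples at both ends of the range, and its log2 fold change of 0.00 took either sign under other scalings. The weakest named member was a 100 bp peak, chr13:15547201-15547300, between 2 abutting peaks, with 0 counts in both old samples and 4 and 3 in the young ones. A count of 0 allows up to 3 counts, so no fold is given, and the exact 95% interval of the ratio of old to young reached up to 0.790. The peak chr13:15550601-15553200, chosen after its values were seen, had 34.2 and 24.9 in the old and 17.8 and 20.7 in the young samples (log2 fold change 0.58, unadjusted p = 0.0336, adjusted p = 0.261). It was the only Gli3 peak with an unadjusted p under 0.05, of 26, or 3.85% against 16.4% of all peaks. Both old samples lay below both young samples at 6 (23.1%, against 24.2% of all peaks) and above them at 5 (19.2%, against 23.2%). Without old replicate 1 the log2 fold change of the peak was 0.36.

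**Figure D4:**
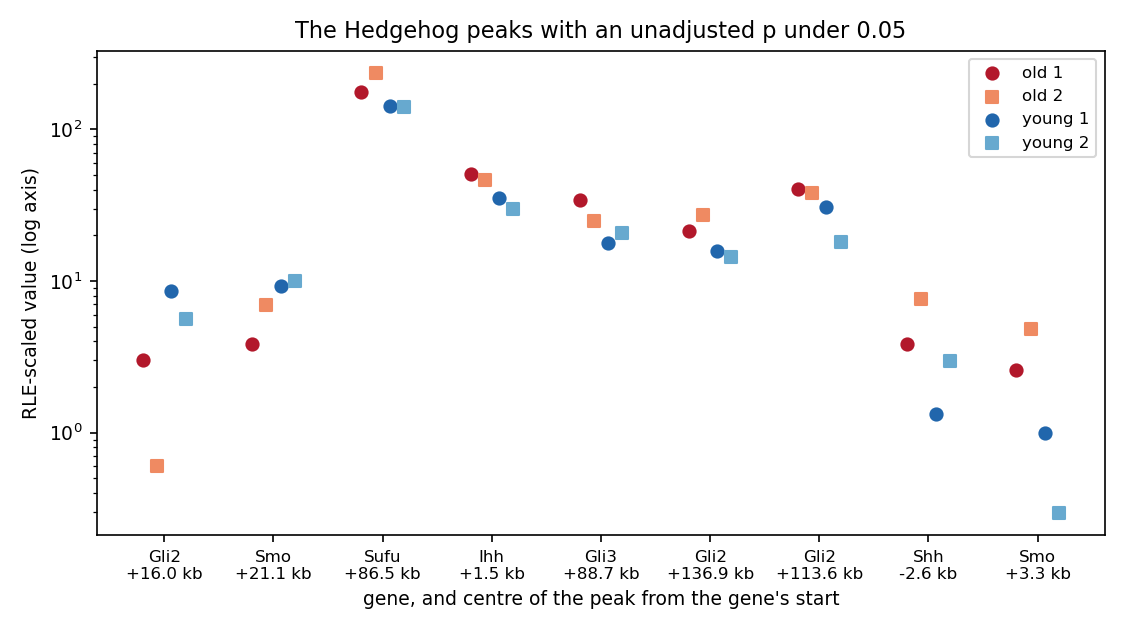
RLE-scaled value (log axis) in each sample of the 9 Hedgehog peaks with an unadjusted p under 0.05, labelled by gene and by the distance of the peak's centre from the gene's start. The 2 peaks at the left, of Gli2 and Smo, are lower in old samples and the other 7 higher, and the 4 samples of the wide Sufu peak and the Ihh start peak lie closest together.

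A list of 22 further genes of the pathway, with the same rule, held 147 peaks. It covered coreceptors (Cdon, Boc, Gas1), the antagonist Hhip, ligand processing and release (Hhat, Disp1, Scube2), cilium proteins (Kif7, Evc, Evc2, Ift88, Arl13b, Gpr161), kinases and ubiquitin ligase parts (Gsk3b, Csnk1a1, Prkaca, Stk36, Btrc, Spop) and the targets Foxf1, Foxf2 and Pthlh. Of these, 0 passed an adjusted p under 0.01, 2 passed 0.05, and 8 were lower and 15 higher at an unadjusted p under 0.05, with a median log2 fold change of 0.06. The shares were 1.36% at an adjusted p under 0.05, against 1.12% of all peaks, and 15.6% at an unadjusted p under 0.05, against 16.4% of all peaks. The lowest p was at Gsk3b, a kinase that phosphorylates Gli factors, in an intron (chr16:38135101-38137900) with 34.2 and 38.8 in the old and 14.9 and 15.6 in the young samples, a log2 fold change of 1.21 (SE 0.24, adjusted p = 0.0256). Hhat, which attaches palmitate to the ligands, had 1.28 and 0.61 against 5.61 and 7.09 at a weak intron peak, chr1:192689301-192689800, with an adjusted p of 0.0415. Arl13b, a cilium GTPase, had 5.56 and 4.25 against 13.2 and 14.2 at chr16:62828601-62829500, with an adjusted p of 0.0532. Of Hhip, which binds the ligands at the cell surface, all 7 peaks had fold changes below 0 (median −0.57), although the lowest unadjusted p among them was 0.0632. Hhip was singled out after its values were seen, and 49.9% of all peaks had fold changes below 0. One-sided runs also occurred at Cdon, with 10 of 11 peaks below 0, and at Disp1, with 15 of 17 above 0. Without old replicate 1, 14 of the 147 peaks (9.52%) passed the adjusted threshold, against 8.83% of all peaks.

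**Figure D5:**
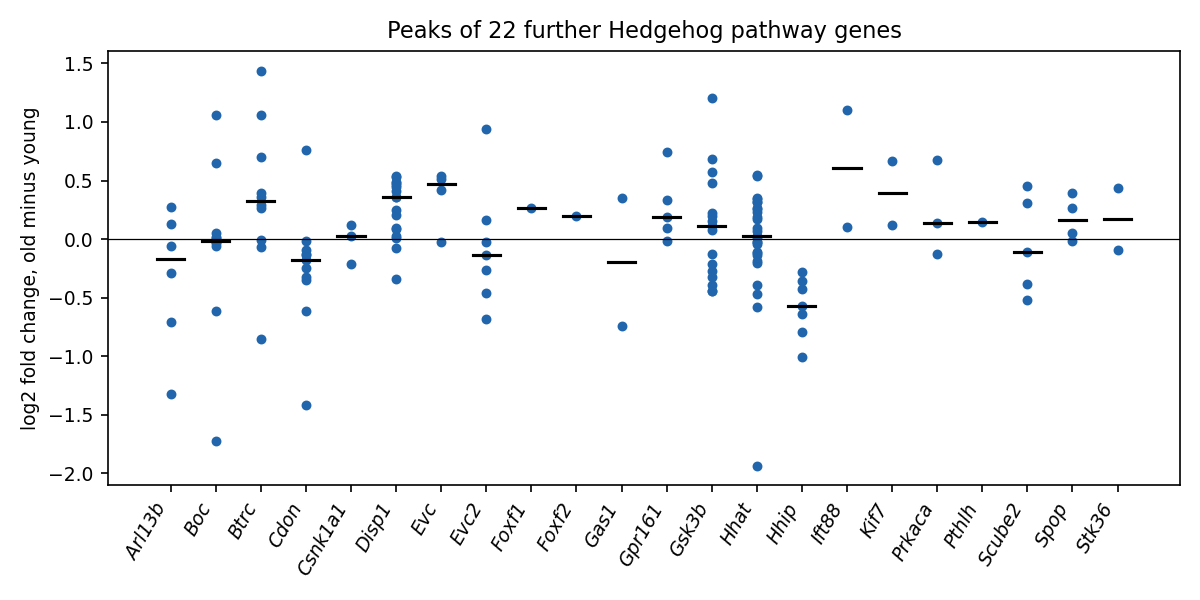
Log2 fold change (old minus young) of every peak of the 22 further pathway genes, 1 column of points per gene with a line at the gene's median. Gsk3b reaches 1.21 and Hhat −1.93. The 7 Hhip peaks and 10 of the 11 Cdon peaks lie below 0, and 15 of the 17 Disp1 peaks lie above 0.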

How the data were processed

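Bone MSCs of old (2 samples) and young mice (2 samples) were compared by ATAC-seq. The authors deposited 1 value per peak and sample, which they named RPKM and which is treated here as a score. It behaved as a count per library total and was not divided by peak length. The scale of 10000000 per library was assumed. Within a tolerance of 0.01, 100% of the values were whole multiples of 1 step per sample, from which counts were recovered. Bowtie2, Picard and mm10 are named in the submitters' processing notes. The study's methods describe chromstaR peaks (bins of 300 bp, steps of 100 bp, mapping quality of at least 15) for other ATAC-seq samples and do not describe these samples separately, so the peak caller used for them is not given in the sources used here. Where bins overlap, a read may enter several of them, and the recovered counts are then not independent reads. The exact intervals therefore cover counting error at most and may be too narrow even for that.

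Values were divided by RLE factors, and log2(value + 1) was tested with limma 3.58.1 in R 4.3.3 (trended, robust moderation) over all 117282 peaks, with Benjamini-Hochberg adjustment and a threshold of 0.01. Summed values per gene were compared by a two-sided exact permutation test, which cannot go below p = 0.33. The limma step was also run on simulated counts with the same dispersion at every peak and no outlying sample. That run cannot vouch for the p-values of these data. Python 3.11.15, pandas 2.3.3, scipy 1.17.1 and matplotlib 3.10.9 were used for the rest.

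The peaks named are those within 1 kb of a start site, each gene's densest peak, and the 3 members with the largest change in each direction among those whose groups did not overlap. Any member past the threshold would also have been named. For the peaks named by their change, non-overlap and a large change were conditions of the choice. These traits and the count intervals of such peaks are therefore not separate findings. The genes, lists and tests were chosen with earlier results of these data known. Alternatives tried were the values as deposited, quantile normalization, equal total signal, a pseudocount of 0.1 or 5, a filter that left out weak peaks, plain moderation, a replicate block, limma-voom on recovered counts, 2 or 10 kb upstream, a threshold of 0.05 and leaving out each sample. The list of further pathway genes had 1 more gene, which is not reported here.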

Additional observations from a re-analysis of the deposited data

How the results depend on the processing

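The scaling between samples set the sign of most small changes. On the values as deposited, the median log2 fold change of the 83 Hedgehog peaks was −0.21. Of them, 71.1% were lower in old MSCs, against 74.6% of all peaks. At an unadjusted p under 0.05 in limma, 7 were lower and 1 higher (8.43% and 1.20%, against 18.5% and 1.70% of all peaks). The log2 ratios of the sums there were −0.20 for Shh, −0.017 for Dhh, −0.25 for Ptch1, −0.19 for Smo, −0.029 for Sufu, −0.12 for Gli1, −0.26 for Gli2 and −0.26 for Gli3, with 0.29 for Ihh. The start peaks gave −0.25 (Ptch1), −0.22 (Smo), −0.23 (Sufu) and −0.11 (Gli1), and the densest Gli2 peak −0.18. The share lower in old MSCs was 34.9% with quantile normalization and 31.3% with equal total signal, where the Gli3 start peak gave 0.060 and 0.019. A filter on weak peaks left 0 lower at an unadjusted p under 0.05, against 8.52% of all peaks that it kept. The 18 log2 fold changes of named peaks kept their sign under pseudocounts of 0.1 and 5 and limma-voom. The replicate block and the filter cannot change these estimates, so they are no test of the sign.

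With 1 sample left out, members past the adjusted threshold ranged from 0 to 4, lower peaks at an unadjusted p under 0.05 from 1 to 5, higher ones from 2 to 17, the median from 0.05 to 0.10 and the share lower from 37.3% to 43.4%. The sums ranged from −0.081 to 0.26 for Shh, −0.13 to 0.33 for Smo, −0.0093 to 0.54 for Sufu and −0.026 to 0.097 for Gli2. The densest Shh peak ranged from −0.37 to 0.11 and the start peaks from −0.96 to 0.30 (Shh), −0.20 to 0.13 (upstream Ptch1), −0.20 to 0.33 (Smo), −0.23 to 0.36 (Sufu), −0.30 to 0.029 (Gli2) and −0.12 to 0.11 (Gli3). Of the 147 peaks of further pathway genes, 2 passed the threshold as deposited, 2 with the replicate block, 2 at 0.05 and 0 to 14 with 1 sample left out. The 2 peaks as deposited were 1.36% of the 147, against 1.18% of all peaks. With the replicate block the shares were 1.36% and 1.08%, and at 0.05 they were 1.36% and 1.12%. The shares of all peaks at an unadjusted p under 0.05 with 1 sample left out are given in the Results. The cause of the shifts between settings was not tested.

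Over all peaks, 66 passed with all samples, 36 lower and 30 higher, against 1333 lower and 52 higher as deposited, 11 and 13 with pseudocount 0.1, 7 and 8 with the filter, 0 with plain moderation, 99 and 50 with limma-voom, and 907 and 362 with the replicate block. The members past the threshold were 0 in each of these. The labels did not say whether samples of the same number shared a preparation. Over all peaks, the correlation of their deviations was −0.10, and with 2 pairs it cannot settle this. The replicate block left 0 members past the threshold and 10 at an unadjusted p under 0.05. Depth limits the weak peaks most, since 3 counts were worth between 0.921 and 1.06 of the deposited value.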
